A study of Mus musculus with 6 samples.

Results

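The clustered protocadherins were followed as 40 of the 96626 transcripts quantified in each RNA-seq library. They were chosen by name: every transcript that the GENCODE vM1 annotation pairs with a gene whose symbol starts with Pcdha, Pcdhb or Pcdhg, which gave 9 transcripts of the alpha cluster, 22 of the beta cluster and 9 of the gamma cluster. The libraries came from cap mesenchyme of C57BL/6 mouse kidney at embryonic day 18.5, sorted by FACS; cap mesenchyme is the population that holds the nephron progenitors. All 6 libraries share the Six2.Cre driver, which is active in these progenitors, and a conditional Dnmt1 allele. Replicates 1 to 3 of the first group were conditional heterozygotes (Dnmt1 +/- in the labels, heterozygous or HET below) and replicates 1 to 3 of the other were homozygous knockouts (Dnmt1 -/-, knockout or KO). The heterozygotes are the only control, so a library with both Dnmt1 copies was not part of the comparison. Dnmt1 encodes the maintenance DNA methyltransferase, and the question put to these transcripts was how their levels differ between progenitors with reduced and with lost Dnmt1.

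Protocadherins of these clusters are cadherin-like proteins of the cell surface that bind copies of the same isoform on a neighbouring cell, and they are best known from neurons, where each cell uses its own combination of isoforms to tell itself from others. In the alpha and gamma clusters each isoform has its own promoter and variable exon, which is spliced to constant exons shared by the whole cluster and encoding the cytoplasmic tail. Beta genes are single-exon genes without shared constant exons. Promoter choice in the clusters is known to depend on CTCF, cohesin and DNA methylation, and the C-type isoforms at the 3′ ends of the alpha and gamma clusters are known to follow a different, more uniform mode of expression from the other isoforms.

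The clusters lie on the plus strand of mouse chromosome 18 (NCBIM37). Transcripts of the alpha cluster span 37089939 to 37347311, those of the beta cluster 37424652 to 37681073 and those of the gamma cluster 37833989 to 38001527. The 18 alpha and gamma members each have 4 exons in the annotation, and 21 of the 22 beta members have 1 (Pcdhb20, annotated as a pseudogene, has 2). The annotation places all alpha transcripts under the symbol Pcdha11 and all gamma transcripts under Pcdhgc5. Isoform names were therefore inferred from position: the distance of each transcript's start from that of Pcdhb1 was matched with the same distance for RefSeq genes on GRCm38.p6. The best match was within 291 bases for alpha, 168 for beta and 0 for gamma, against at least 5413, 4222 and 3779 bases to the next candidate, and all 22 beta names obtained this way equalled the annotated ones. RefSeq lists 14 alpha, 22 beta and 22 gamma genes, so 5 alpha and 13 gamma isoforms had no transcript that could be named and are not analysed here.

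Library totals ran from 46741667 to 61585484 estimated counts. Clustered protocadherins took 0.0246%, 0.0243% and 0.0260% of the counts in heterozygous replicates 1 to 3 and 0.0272%, 0.0297% and 0.0310% in knockout replicates 1 to 3. Levels below are CPM (counts scaled to library size) with edgeR's TMM factors, within a table of all transcripts, of all genes, or of all genes with each cluster summed, so the same gene can differ slightly between tables. Dnmt1 itself checked the labels: it was 40.0, 52.4 and 51.8 CPM in the heterozygotes against 20.9, 18.6 and 14.9 CPM in the knockouts, and the groups did not overlap (log2 fold change −1.41 ± 0.15 (SE), edgeR quasi-likelihood adjusted p = 0.000264). All 10 cap mesenchyme markers were detected. Their summed level was 1852, 1916 and 1949 CPM in the heterozygotes and 1308, 1478 and 1601 CPM in the knockouts. Among the 10, 2 (Wt1 and Cited1) were lower at the threshold used and 0 higher, beside 1.92% and 4.92% of all genes. The difference was positive in 2 of the 10, among them Meox1, named after its values were seen. Meox1 was 27.85, 37.7 and 34.6 CPM in the heterozygotes and 39.4, 49.6 and 56.7 CPM in the knockouts, without overlap. Endothelial, stromal and ureteric markers were higher in knockout replicate 1 than in the other libraries: endothelial markers summed to 39.7, 53.2 and 50.5 CPM in the heterozygotes and to 233, 101 and 59.2 CPM in knockout replicates 1 to 3. Stromal markers showed the same order, at 252, 305 and 237 CPM against 773, 391 and 330.0 CPM, as did ureteric markers, at 42.0, 73.3 and 59.6 CPM against 246, 129.9 and 69.7 CPM. In bulk RNA a change in the share of a cell type and a change in RNA per cell cannot be told apart.

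The beta cluster as a whole rose in the knockouts, and the sums of the alpha and gamma transcripts at hand did not pass the test. Those 2 sums lack 5 alpha and 13 gamma isoforms, while the beta sum lacks 0. Summed over its 22 transcripts, the beta cluster was 134, 118 and 124 CPM in the heterozygotes and 178, 203 and 201 CPM in the knockouts. Every knockout library lay above every heterozygous one, and knockout replicate 1 was the lowest of the 3. The fold was 1.55 (log2 0.63 ± 0.09 (SE), edgeR adjusted p = 0.00119 over 16969 rows, of which 4.88% were called higher). An exact two-sided permutation test of the 6 libraries gave p = 0.1, the smallest it can give with 3 against 3. Without knockout replicate 1 the log2 difference of the beta sum was 0.70 (edgeR adjusted p = 0.000739), and among the alternatives it was lowest, at 0.47, when libraries were scaled by their totals.

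The 9 gamma transcripts together were 111, 129 and 144 CPM in the heterozygotes and 116, 144 and 149.7 CPM in the knockouts, with the 2 groups interleaved. They include the C-type isoforms Pcdhgc3, Pcdhgc4 and Pcdhgc5 but lack 13 other gamma isoforms, so their sum does not stand for the whole cluster. The log2 difference was 0.10 ± 0.12 (SE, edgeR adjusted p = 0.665; exact permutation p = 0.5), and its sign turned under scaling by library totals (−0.07) and on the log2(TPM + 1) scale (−0.03). The alpha cluster had the lowest sum of the 3 clusters, at 3.30, 2.11 and 0.750 CPM in the heterozygotes and 4.27, 5.01 and 4.47 CPM in the knockouts. These values did not overlap, yet the heterozygous replicates alone spread over more than the gap between the groups, and the difference of 1.15 ± 0.44 (log2, SE) had an edgeR adjusted p of 0.176 (exact permutation p = 0.1, the smallest possible).

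**Figure D1:**
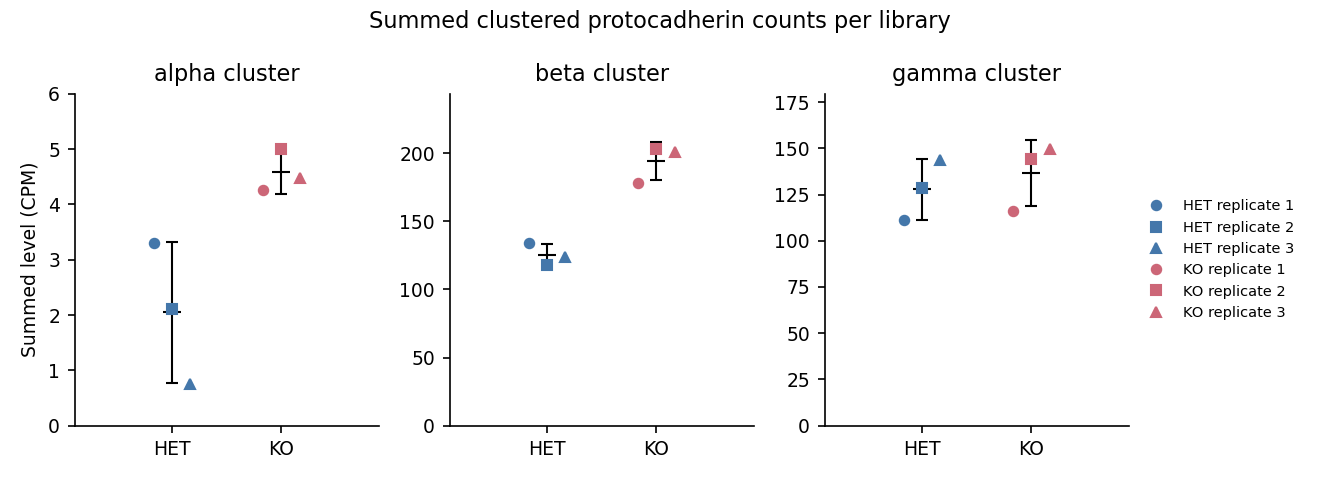
Summed level of the alpha, beta and gamma transcripts in each library (vertical axis, CPM scaled by TMM, starting at 0; each panel has its own scale). Points are libraries, short bars the group means and whiskers the SD over 3 libraries. Beta sums were 118 to 134 CPM in the heterozygotes and 178 to 203 CPM in the knockouts, while the gamma groups overlap and the alpha level stays at or below 5.01 CPM.

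Fitted transcript by transcript over 50137 transcripts, 36 of the 40 members passed the filter on low counts. Pcdha1, Pcdha4, Pcdha11 and Pcdhb1 did not. Of the 36, 6 rose in the knockouts (Pcdhb11, Pcdhb14, Pcdhb17, Pcdhb19, Pcdhga3 and Pcdhga12), 0 fell and 30 did not pass at an edgeR adjusted p of 0.05. Among all transcripts tested 1.59% were called higher and 0.199% lower. At an unadjusted p of 0.05, 19 members passed, all of them higher, where 7.94% of all transcripts were higher at that p. DESeq2 called 16 members, also all higher, where it called 4.05% of all transcripts higher. In 22 of the 36 every knockout library was above every heterozygous library, against 11.4% of all transcripts, and in 0 was every knockout library below, against 10.9%. The median log2 difference of the 36 was 0.80, beside −0.01 for all transcripts tested. A transcript can pass the filter through its high group alone, so these counts describe the members that passed and not all 40. With libraries scaled by their totals, the median of all transcripts moved to −0.24, and 25 members instead of 29 had a positive difference.

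**Figure D2:**
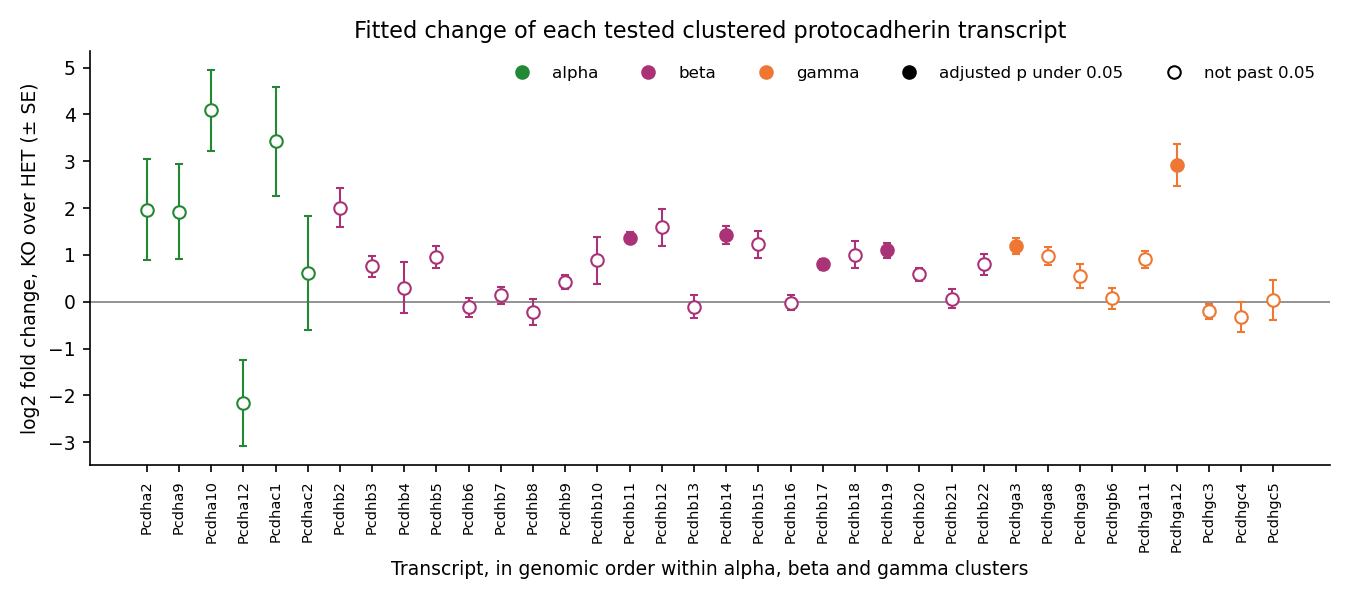
Fitted log2 fold change of knockout over heterozygous (vertical axis, whiskers are SE) for the 36 tested transcripts in genomic order within the alpha, beta and gamma clusters (horizontal axis). Filled points have an edgeR adjusted p under 0.05; the 6 filled points are all above 0, and the 3 C-type gamma isoforms at the right end lie between −0.33 and 0.04.

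Within the beta cluster, Pcdhb11 changed with the smallest p. Its level was 6.65, 6.27 and 6.64 CPM in the heterozygotes and 16.4, 17.6 and 16.4 CPM in the knockouts. The 2 groups were tight and far apart, and the rise of 2.58-fold (log2 1.37 ± 0.12 (SE), edgeR adjusted p = 0.0018) was the one transcript call that held under each of the 17 alternatives run. Pcdhb14 was 5.83, 7.64 and 7.15 CPM against 15.6, 22.5 and 17.5 CPM, with no overlap (log2 1.43 ± 0.19 (SE), adjusted p = 0.0122). Its transcript is 8695 bases long in the deposited tables and 3438 bases in the annotation, so the model that was quantified there is longer than the annotated one. The same held for other members, among them Pcdhb11 (4419 against 3615 bases) and Pcdhb17 (4660 against 3269 bases).

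Pcdhb19 was 10.8, 8.21 and 10.7 CPM in the heterozygotes and 18.5, 22.1 and 23.2 CPM in the knockouts, again without overlap (log2 1.10 ± 0.16 (SE), edgeR adjusted p = 0.0177). Pcdhb17 was 17.1, 14.4 and 16.1 CPM against 26.2, 30.1 and 26.6 CPM, the smallest of the called rises (log2 0.80 ± 0.11 (SE), edgeR adjusted p = 0.0170). It was also the most abundant beta transcript per length, at a mean of 4.42 TPM (a level corrected for transcript length and sequencing depth) in the heterozygotes and 6.73 TPM in the knockouts. The calls of Pcdhb14, Pcdhb17 and Pcdhb19 were each lost under 6 or more of 17 alternatives: Pcdhb14 kept a log2 difference of 1.46 without heterozygous replicate 3 (adjusted p = 0.0596), 1.27 without knockout replicate 2 (0.0506) and 1.47 without knockout replicate 3 (0.0504). Pcdhb17 kept 0.74 to 0.84 (log2) but lost its call without heterozygous replicate 2 or 3 or any 1 knockout replicate (edgeR adjusted p from 0.0563 to 0.0817). Pcdhb19 kept 0.99 to 1.16 and lost its call without replicate 2 or 3 of either group (edgeR adjusted p from 0.059 to 0.102). Together the 4 called transcripts summed to 45.2, 40.0 and 44.3 CPM in the heterozygotes and 81.2, 95.5 and 89.5 CPM in the knockouts. The other 18 beta transcripts summed to 88.5, 78.0 and 79.5 CPM against 96.7, 108 and 112 CPM. Those sums were formed after the calls were known and are given without a test.

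Estimated counts were also summed per gene and tested over 16989 genes instead of 50137 transcripts. The counts of the 22 beta members were the same in both. At the gene level 7 of the 21 beta genes tested rose and 0 fell, where 4.92% of all 16989 genes were called higher and 1.92% lower. At that level the 4 transcripts above were joined by Pcdhb2, Pcdhb12 and Pcdhb15. Pcdhb2 was 1.05, 1.01 and 2.65 CPM in the heterozygotes and 5.11, 6.78 and 6.16 CPM in the knockouts, a clear gap at a low level (gene fit, log2 1.95 ± 0.38 (SE), edgeR adjusted p = 0.0131; transcript fit, adjusted p = 0.080). Pcdhb12 was 0.758, 1.96 and 1.24 CPM against 3.08, 4.98 and 3.38 CPM (log2 1.53 ± 0.36 (SE), edgeR adjusted p = 0.0334). Pcdhb15 was 2.80, 1.58 and 2.52 CPM against 4.18, 4.61 and 6.64 CPM (log2 1.16 ± 0.29 (SE), edgeR adjusted p = 0.0386). All 7 genes had non-overlapping groups, but the number called was 4 without knockout replicate 2 and 8 without knockout replicate 1. Pcdhb2 lost its call without heterozygous replicate 1 or 2 or knockout replicate 2 (log2 1.71 to 1.86, edgeR adjusted p from 0.0507 to 0.0724) and was 2.55 without heterozygous replicate 3. Calls were also lost for Pcdhb12 without heterozygous replicate 1 or 3 or knockout replicate 2 or 3 (log2 1.25 to 1.61, edgeR adjusted p from 0.0522 to 0.154) and for Pcdhb15 without replicate 2 or 3 of either group (log2 0.94 to 1.25, edgeR adjusted p from 0.0897 to 0.124). At the gene level the 9 alpha transcripts and the 9 gamma transcripts are merged into 1 row each, and neither row was called.

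The other beta transcripts did not pass the test, abundant ones among them. Pcdhb16, among the 3 most abundant beta transcripts per length at a mean of 3.36 TPM, was 17.2, 11.9 and 14.6 CPM in the heterozygotes and 14.3, 15.3 and 13.5 CPM in the knockouts, with full overlap (log2 −0.02 ± 0.16 (SE), edgeR adjusted p = 0.972). Its sign depended on single libraries, being 0.12 without heterozygous replicate 1 and 0.02 without knockout replicate 3. Pcdhb20, the annotated pseudogene and likewise among the 3 most abundant, was 8.23, 8.03 and 8.62 CPM against 10.7, 13.3 and 13.4 CPM; the groups did not overlap, and the log2 difference of 0.58 ± 0.14 (SE) had an edgeR adjusted p of 0.133. The 17 beta transcripts that were not called had differences from −0.22 (Pcdhb8) to 2.01 (Pcdhb2), and in 8 of the 21 tested the groups overlapped.

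Neighbouring genes were set side by side. The following pairs were picked after the values were seen and carry no test. Pcdhb13 ends 1447 bases before Pcdhb14 starts, and it was 3.76, 2.38 and 2.56 CPM in the heterozygotes and 2.44, 2.83 and 2.80 CPM in the knockouts. The log2 ratio of Pcdhb14 to Pcdhb13 was thus 1.27 ± 0.56 (SD, n = 3) in the heterozygotes and 2.77 ± 0.19 in the knockouts, each knockout ratio being above each heterozygous one. Pcdhb16 ends 1985 bases before Pcdhb17, and the log2 ratio of Pcdhb17 to Pcdhb16 was 0.14 ± 0.14 (SD, n = 3) against 0.94 ± 0.06. In words, Pcdhb16 and Pcdhb17 had nearly equal counts in the heterozygotes and Pcdhb17 had more in every knockout library. On its other side, Pcdhb15 ends 1427 bases before Pcdhb16, and the log2 ratio of Pcdhb16 to Pcdhb15 was 2.83 ± 0.19 (SD, n = 3) in the heterozygotes and 1.59 ± 0.40 in the knockouts.

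**Figure D3:**
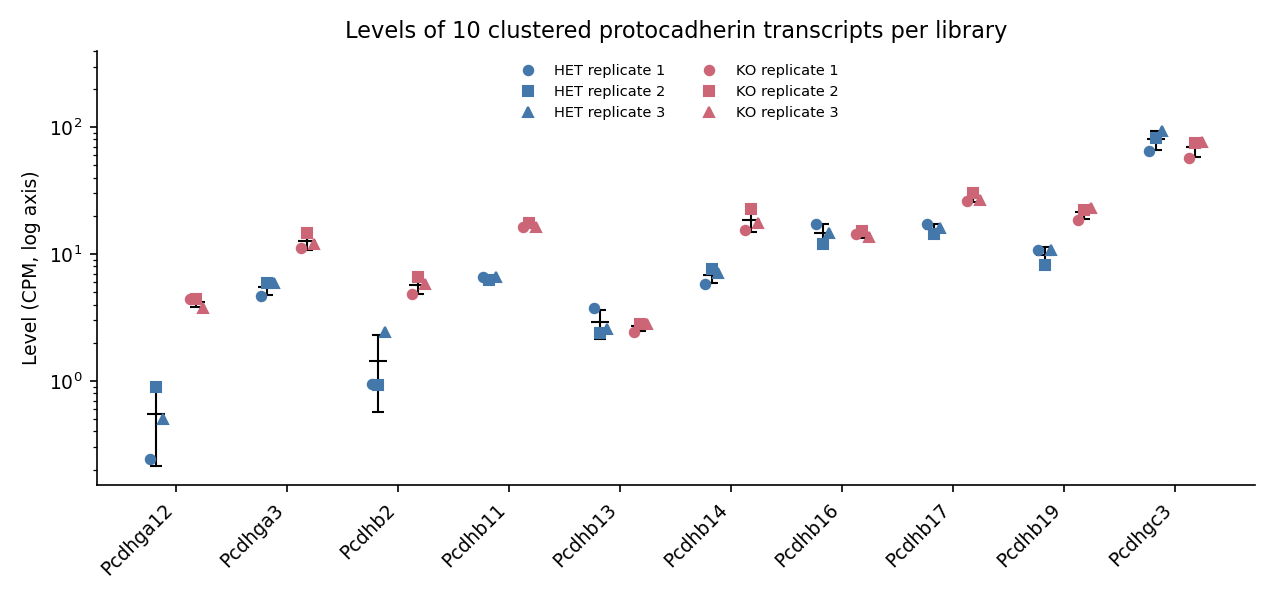
Levels of 10 clustered protocadherin transcripts in each library (vertical axis, CPM scaled by TMM, logarithmic). Points are libraries, short bars the group means and whiskers the SD over 3 libraries. The knockout points of Pcdhga12, Pcdhga3, Pcdhb2, Pcdhb11, Pcdhb14, Pcdhb17 and Pcdhb19 lie above all heterozygous points, while those of Pcdhb13, Pcdhb16 and Pcdhgc3 overlap them.

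In the gamma cluster 2 of the 9 transcripts rose, 0 fell and 7 did not pass, and 2 of the 7 had a negative difference. Gamma isoforms of A type and B type carry variable exons of the larger, upstream arrays, and the C-type isoforms Pcdhgc3, Pcdhgc4 and Pcdhgc5 lie nearest the constant exons. Pcdhga12, the last A-type isoform before the C types, was 0.243, 0.903 and 0.498 CPM in the heterozygotes and 4.40, 4.41 and 3.78 CPM in the knockouts. Its heterozygous values were low, between 14.0 and 58.0 estimated counts, and every knockout value was above them, a 7.58-fold rise (log2 2.92 ± 0.46 (SE), edgeR adjusted p = 0.0266). The call was lost without heterozygous replicate 3 or any 1 knockout replicate (log2 2.86 to 2.99, adjusted p from 0.0829 to 0.126), while the direction held.

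Pcdhga3, the most upstream gamma transcript here, was 4.68, 5.96 and 5.90 CPM in the heterozygotes and 11.1, 14.7 and 12.02 CPM in the knockouts. Those groups did not overlap, and Pcdhga3 rose 2.29-fold (log2 1.19 ± 0.18 (SE), edgeR adjusted p = 0.0214). With any 1 of the 6 libraries left out the difference of Pcdhga3 was 1.08 to 1.28 (log2), with an edgeR adjusted p from 0.0506 to 0.0985. Pcdhga8 was 6.94, 7.49 and 5.26 CPM against 11.2, 12.9 and 14.8 CPM, just short of the threshold (log2 0.98 ± 0.19 (SE), adjusted p = 0.0610). Pcdhga11 was 6.09, 6.84 and 7.91 CPM against 10.7, 13.6 and 14.9 CPM, likewise just short (log2 0.91 ± 0.18 (SE), adjusted p = 0.0666). Pcdhga9 had a difference of 0.55 ± 0.26 (log2, SE), also without overlap. The one B-type isoform present, Pcdhgb6, was 6.13, 7.38 and 7.35 CPM in the heterozygotes and 5.17, 9.09 and 7.62 CPM in the knockouts, where the groups overlapped. Summed in the table with cluster sums, the 5 A-type isoforms were 25.1, 26.1 and 25.8 CPM in the heterozygotes and 45.1, 53.9 and 53.6 CPM in the knockouts, given without a test because the split by type was made with these results known.

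None of the 3 C-type gamma isoforms passed the test. Pcdhgc3 was the most abundant of all 40 transcripts per length, at a mean of 22.0 TPM in the heterozygotes and 16.8 TPM in the knockouts. It was 65.4, 82.0 and 92.8 CPM in the heterozygotes and 56.9, 74.6 and 76.7 CPM in the knockouts. The groups overlapped, and the log2 difference of −0.21 ± 0.17 (SE) did not pass (edgeR adjusted p = 0.636). Pcdhgc4 was 4.19, 3.81 and 6.29 CPM against 4.07, 2.38 and 4.86 CPM (log2 −0.33 ± 0.32 (SE), adjusted p = 0.705). Pcdhgc5 was 1.10, 0.625 and 1.20 CPM against 1.24, 1.20 and 0.583 CPM, with no stable sign (log2 0.04 ± 0.42 (SE), adjusted p = 0.980). The 3 together were 79.1, 94.5 and 109.6 CPM in the heterozygotes and 65.7, 80.9 and 87.9 CPM in the knockouts.

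The make-up of the gamma cluster was read as the share of each transcript in the summed gamma TPM. Pcdhgc3 made up 66.3%, 70.0% and 71.1% of the summed gamma TPM in heterozygous replicates 1 to 3 and 52.2%, 53.9% and 55.3% in knockout replicates 1 to 3. The means were 69.1% ± 2.54 (SD, n = 3) and 53.8% ± 1.57, without overlap, and an exact two-sided permutation test gave p = 0.1, the smallest possible with 3 against 3. Pcdhga12 made up 0.227%, 0.710% and 0.351% of gamma TPM in the heterozygotes and 3.71%, 2.93% and 2.51% in the knockouts. Pcdhga12 and Pcdhgc3 start 40830 bases apart and are next to each other among the gamma transcripts listed. Their log2 ratio, Pcdhgc3 over Pcdhga12, was 7.37 ± 0.80 (SD, n = 3) in the heterozygotes and 4.04 ± 0.33 in the knockouts, a pair chosen after the values were seen and given without a test. Shares of these 9 transcripts leave out the 13 gamma isoforms that could not be named, and reads from the shared constant exons were divided among isoforms by kallisto.

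**Figure D4:**
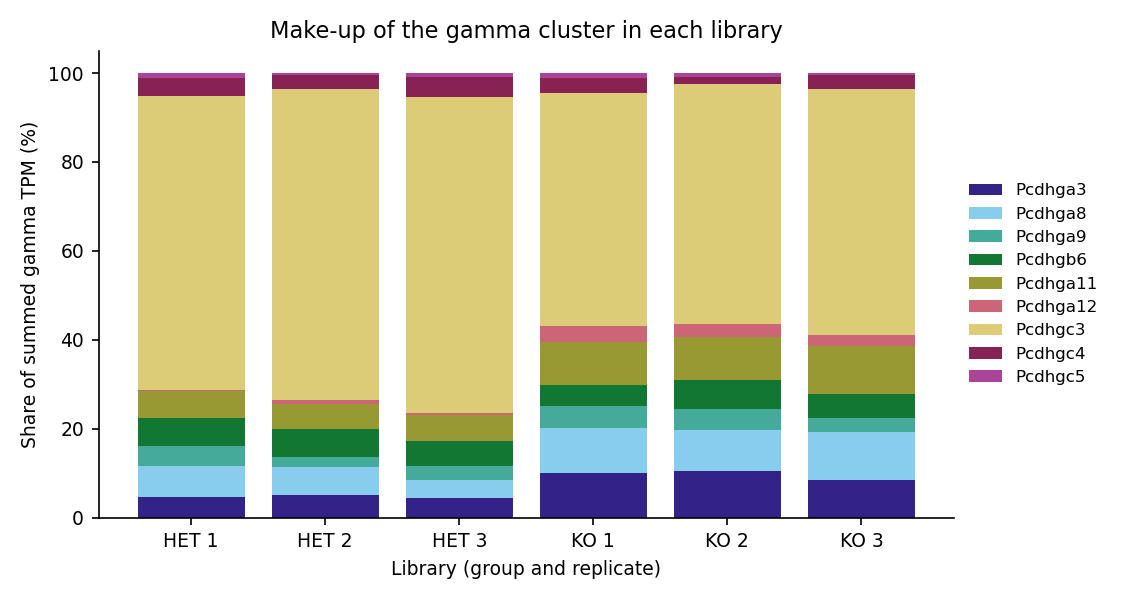
Share of each gamma transcript in the summed gamma TPM of each library (vertical axis, percent; horizontal axis, the 3 heterozygous and 3 knockout libraries). Pcdhgc3, the largest segment, takes 66.3% to 71.1% in the heterozygotes and 52.2% to 55.3% in the knockouts, and the segments of Pcdhga3, Pcdhga8, Pcdhga11 and Pcdhga12 are larger in every knockout library, while those of Pcdhga9 overlap.

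Alpha isoforms were the least expressed of the family. The highest mean over the 6 libraries was 0.153 TPM for Pcdha2, followed by Pcdha10 at 0.151 TPM and Pcdhac2 at 0.126 TPM, against 5.57 TPM for the top beta transcript and 19.4 TPM for the top gamma transcript. In edgeR's test 0 of the 6 alpha transcripts that passed the filter were called in either direction; 2 had an unadjusted p below 0.05, both higher, limma voom called 0 and DESeq2 called 1, Pcdha10. Pcdha10 was 0.0617, 0.160 and 0 CPM in the heterozygotes and 0.929, 1.51 and 1.63 CPM in the knockouts, or 13.8 against 216 estimated counts over each group. A level of 3 counts, the limit that a count of 0 allows, equals 0.0487 to 0.0642 CPM in these libraries, so the heterozygous values sit near it and the knockout values well above. The log2 difference of Pcdha10 was 4.09 ± 0.87 (SE, edgeR adjusted p = 0.0913), and it ran from 3.56 without heterozygous replicate 3 to 5.14 without heterozygous replicate 2.

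Pcdha2 was 0, 0.558 and 0.297 CPM in the heterozygotes and 1.34, 1.31 and 0.774 CPM in the knockouts (log2 1.97 ± 1.09 (SE), edgeR adjusted p = 0.489; 1.39 without heterozygous replicate 1 and 2.92 without heterozygous replicate 2). Of the C-type alpha isoforms, Pcdhac1 was 0, 0.0787 and 0 CPM against 0.197, 0.323 and 0.442 CPM, without overlap but with 5.1 against 51.2 estimated counts in all (edgeR adjusted p = 0.272). Pcdhac2 was 1.20, 0.245 and 0 CPM against 0.730, 0.663 and 0.827 CPM, where the heterozygous libraries ranged on both sides of the knockouts (adjusted p = 0.869). Pcdha12, named here after its values were seen, was the alpha transcript with a negative difference. It was 1.56, 0.524 and 0.300 CPM in the heterozygotes and 0.122, 0.370 and 0.0345 CPM in the knockouts, overlapping in part (log2 −2.16 ± 0.93 (SE), edgeR adjusted p = 0.380). Pcdha12 held 55.2%, 27.6% and 43.7% of the summed alpha TPM in the heterozygotes and 3.10%, 7.79% and 0.845% in the knockouts, but these shares rest on 34.0 to 259.6 estimated counts a library for the whole cluster. Pcdha4 had no count in any library and Pcdha11 rounded to 0 in all. The log2 differences of the C-type isoforms depended on single libraries. That of Pcdhac1, 3.42 ± 1.16 (SE), ran from 2.89 without heterozygous replicate 1 to 7.09 without heterozygous replicate 2, and that of Pcdhac2, 0.61 ± 1.21 (SE), from 0.04 without heterozygous replicate 3 to 2.50 without heterozygous replicate 1.

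Sequence features that played no part in choosing the members were read from the NCBIM37 genome. The ratio of observed to expected CpG in the 500 bases before and the 500 bases after a transcript's first base was 0.39 at the median of the beta transcripts (0.158 to 0.554), 0.658 for gamma (0.247 to 0.893) and 0.697 for alpha (0.606 to 0.794), beside 0.583 for 19227 expressed protein-coding genes. The 9 gamma members are listed by rising ratio, each with its log2 difference and without a test. First were Pcdhgc5 (ratio 0.247, log2 0.04), Pcdhga12 (0.318, 2.92), Pcdhga9 (0.486, 0.55) and Pcdhga3 (0.613, 1.19). Then came Pcdhgb6 (0.658, 0.07), Pcdhgc4 (0.67, −0.33), Pcdhga8 (0.744, 0.98), Pcdhgc3 (0.798, −0.21) and Pcdhga11 (0.893, 0.91). The lowest ratios thus belonged to Pcdhgc5, without a stable sign, and to Pcdhga12, with the largest rise among the called members. Among the 21 tested beta transcripts the log2 difference had a Pearson correlation of 0.09 (Spearman 0.04) with this CpG ratio, −0.03 (0.04) with position in the cluster and −0.37 (−0.35) with the log2 mean TPM in the heterozygotes. These are descriptions across genes of 1 locus and the same 6 libraries, and the last shares its heterozygous values with the difference. Beta transcripts had 72.9% to 100% of their 31-base words to themselves among the protein-coding transcripts of the annotation, alpha transcripts 36.6% to 72.5% and gamma transcripts 51.5% to 58.5%, so the division of reads among isoforms is least certain for alpha and gamma. The words were counted on the annotated sequences, and some quantified models are longer. Pcdha9, at 72.5%, has 2940 annotated bases and 5341 quantified bases. Pcdha12, at 36.6%, has 5254 and 5335. The upper alpha values may therefore overstate how distinct the quantified models are.

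Genes around the clusters were called at about the share of all genes. Of 32 genes within 500 kb of the outermost members or between the clusters, 30 were tested, 2 rose, 0 fell and 28 did not pass, beside 4.92% of all genes called higher and 1.92% called lower, with a median log2 difference of 0.06 against 0.00 for all genes. Taf7, a subunit of the general transcription factor TFIID, lies between the beta and gamma clusters on the opposite strand (37800556 to 37803858). It was 37.7, 39.0 and 37.9 CPM in the heterozygotes and 53.5, 51.7 and 49.7 CPM in the knockouts, without overlap (log2 0.44 ± 0.08 (SE), edgeR adjusted p = 0.00959). Dnd1, a germ cell RNA-binding protein encoded upstream of the alpha cluster (36923325 to 36925868), was 1.73, 1.57 and 1.28 CPM against 3.97, 4.84 and 2.57 CPM (log2 1.31 ± 0.30 (SE), edgeR adjusted p = 0.0246). Among those that did not pass were Hars, a histidyl-tRNA synthetase, at 139.8, 140.1 and 140.1 CPM against 132, 149 and 137 CPM, and Hdac3, a histone deacetylase just beyond the gamma cluster, at 92.6, 92.3 and 90.9 CPM against 98.7, 102 and 92.7 CPM.

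Known regulators of the clusters were read at the RNA level. Of 28 tested, Atf7ip, a partner of the histone methyltransferase Setdb1, rose, Dnmt1 fell, and 26 did not pass, 1 call in each direction beside 4.92% and 1.92% of all genes, with a median of −0.11 on the log2 scale. Atf7ip was 97.9, 86.4 and 81.6 CPM in the heterozygotes and 108, 113 and 122 CPM in the knockouts (log2 0.37 ± 0.09 (SE), edgeR adjusted p = 0.0381). Ctcf, the insulator protein that binds the variable promoters, was 120.4, 112 and 105 CPM against 104, 109.8 and 116 CPM and overlapped throughout. The cohesin subunit Smc3 had a difference of −0.33 ± 0.09 (log2, SE) with an edgeR adjusted p of 0.0697, and 13 of the 28 had an unadjusted p below 0.05, where 22.0% of all genes did.

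Among 22 intracellular partners and proteases of protocadherins, 2 rose, 0 fell and 20 did not pass; in this list and the next lists too the shares over all genes were 4.92% higher and 1.92% lower. Fyn, a kinase reported to bind protocadherin tails, was 25.1, 22.6 and 23.2 CPM in the heterozygotes and 35.4, 31.3 and 30.6 CPM in the knockouts (log2 0.45 ± 0.10 (SE), edgeR adjusted p = 0.0246). Ret, a receptor kinase that associates with protocadherins in neurons and also marks the ureteric epithelium, was 0.233, 0.715 and 0.463 CPM against 5.66, 4.28 and 1.73 CPM (log2 3.03 ± 0.53 (SE), adjusted p = 0.00953). The order of Ret among the knockouts, highest in replicate 1, was that of the ureteric markers given above, and the part of other cells in it was not tested. Protocadherins outside the clusters gave no call: of 13 genes, 11 were tested, 0 passed in edgeR, 0 in DESeq2 and 0 in limma voom, and 2 had an unadjusted p below 0.05, with a median of 0.59. The smallest p was that of Pcdh8, at 1.51, 0.721 and 0.247 CPM against 1.30, 2.15 and 3.48 CPM. Of 12 classical cadherins and catenins, Cdh11, a mesenchymal cadherin, fell from 269, 226 and 243 CPM to 181, 175 and 188 CPM (log2 −0.44 ± 0.08 (SE), edgeR adjusted p = 0.0106), 0 rose and 11 did not pass.

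Because clustered protocadherins are abundant in neurons, neuronal and glial markers were read beside them. The 13 neuronal markers summed to 69.5, 64.8 and 61.8 CPM in the heterozygotes and 73.2, 78.3 and 85.1 CPM in the knockouts, most of it Elavl4. Without Elavl4, left out after its values were seen, the other 12 summed to 9.89, 10.3 and 12.01 CPM against 20.8, 13.4 and 18.5 CPM. Every knockout sum was then above every heterozygous one. Of the 10 tested, 5 had an unadjusted edgeR p below 0.05, where 22.0% of all genes did in either direction. These 5 were all higher and without overlap: Tubb3, Syt1, Stmn2, Nefm and Gap43, the last 4 named after their values were seen. The share of all genes without overlap was not computed. Tubb3 was called higher, from 0.389, 0.357 and 0.375 CPM to 1.57, 1.14 and 1.02 CPM (edgeR adjusted p = 0.0168). Th and Dbh, enzymes of noradrenaline synthesis in sympathetic neurons, were at or near 0, neither above 0.177 CPM in any library, though Th was higher in each knockout (0.106, 0.116 and 0.177 CPM) than in any heterozygote (0, 0.034 and 0 CPM). The 7 Schwann and glial markers summed to 17.0, 11.4 and 12.02 CPM against 21.3, 17.8 and 12.7 CPM; Erbb3 was called higher, and Sox10 and Foxd3 stayed at or below 0.297 CPM in every library. The summed blood and macrophage markers overlapped, at 83.1, 165 and 117 CPM against 119.8, 72.2 and 129 CPM, most of it Hba-a1. Of these 8 markers, Lyz2 was called higher and 7 did not pass. Lyz2 had a mean of 1.703 CPM in the heterozygotes and 4.644 CPM in the knockouts, without overlap (edgeR adjusted p = 0.0242). Nephron epithelium markers were 386, 416 and 407 CPM against 497, 464 and 464 CPM. The part of other cell types in the protocadherin differences was not tested beyond the value of the beta sum without knockout replicate 1.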

How the data were processed

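RNA was measured in 3 heterozygous and 3 knockout libraries prepared with an ultra low input protocol on a HiSeq2000, as the labels' protocols state. For each library the authors deposited kallisto output with an estimated count, a TPM value and lengths (other values, in bases) for each transcript, per the file headers. The submitters' processing notes name mm10. The kallisto version, index annotation and strand setting were not given in the sources used here. The labels do not say whether libraries came from separate embryos, so the spread behind each p-value may be technical. GENCODE vM1 paired 74519 of 96626 transcripts (92.4% to 92.82% of counts) with 26567 genes; the others entered the transcript table only. Estimated counts were rounded and tested with edgeR 4.0.16 (quasi-likelihood, TMM, filterByExpr, robust; R 4.3.3), knockout against heterozygous, without covariates, Benjamini-Hochberg over all features at 0.05. Replicate numbers did not pair the libraries. Members and lists were chosen with earlier results of these data known. Named members are those called, C-type isoforms and the 3 highest by mean TPM per cluster, and from other lists those called or with the smallest p; others are said to be chosen after their values were seen or only describe a list. Alternatives were DESeq2 1.42.0, limma 3.58.1 (voom, or log2 TPM with pseudocount 1 or 0.1 and a mean TPM filter of 0.1), other scalings and filters, length offsets, a replicate block and each library left out. The edgeR script was tested on simulated data, with features changed 1.5-, 2-, 4- and 8-fold, drawn from all those tested. The transcript fit recovered 0, 3, 14 and 33 of 50 at each fold (0%, 6%, 28% and 66%), with 12 false calls. The gene fit recovered 15, 28, 39 and 47 of 50 (30%, 56%, 78% and 94%), with 19 false calls. In both simulations false calls were a larger part of all calls than the threshold of 0.05 aims for. A transcript that did not pass can therefore still differ, and a call can be false. Counting limits use 3 counts and cover counting error only.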

Additional observations from a re-analysis of the deposited data

How the results depend on the processing

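The beta cluster sum was called higher, and the alpha sum was not called, under each of the 18 alternatives run; leaving out 1 library gave 0.59 to 0.70 for beta and 0.76 to 1.67 for alpha (log2). The gamma sum, 0.10, turned to −0.067 with library totals, −0.028 on log2(TPM + 1) with or without the filter and −0.029 on log2(TPM + 0.1), and ran from 0.006 to 0.212 with 1 library left out; it was never called. The 6 member transcripts called higher became 16 with DESeq2, 2 on log2(TPM + 1), 2 on log2(TPM + 0.1), 1 on log2(TPM + 1) without a filter and 1 to 5 with 1 library left out (1 without knockout replicate 2 and 1 without knockout replicate 3). With the replicate number as a block they were 2; libraries with the same number did not deviate together (r from −0.068 to −0.031), so the numbers give no pairing. The 7 genes called higher became 11 with DESeq2, 3 on log2(TPM + 1) without a filter and 4 to 8 with 1 library left out. No member was called lower in any of these. Pcdhb16 turned positive with limma voom (0.001) and without heterozygous replicate 1 (0.117) or knockout replicate 3 (0.022), in a range from −0.148 to 0.117 with 1 library left out. Pcdhgc5 turned negative with library totals (−0.19), on log2(TPM + 1) with or without the filter (−0.031), on log2(TPM + 0.1) (−0.113), and without heterozygous replicate 2 (−0.205), knockout replicate 1 (−0.137) or knockout replicate 2 (−0.093), in a range from −0.205 to 0.313. The cause of these changes was not tested. Scaling by library totals turned the calls over all genes from 836 higher and 327 lower to 731 and 1883. The alpha sum held 34.0 to 259.6 estimated counts a library.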
